A study of Mus musculus with 6 samples.

Results

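The neurogenic transcription factors of otic neuroblasts are described here: Neurog1, Neurod1, Neurod4, Insm1, Nhlh1, Nhlh2, Isl1, Pou4f1, Eya2 and Ebf1. They were taken by name, as every probe set that the array's annotation gives to 1 of these 10 symbols alone, which found 21 probe sets for the 10 genes among 18193 named genes. A probe set is a group of short array probes for one transcript, and its intensity is the brightness of the labelled RNA bound to it. Otic vesicles, the epithelial sacs that become the inner ear, were microdissected at E11.5 (embryonic day 11.5) from mice. Mest-KO embryos were conditional knockouts of the T-box factor gene Tbx1 made with T-Cre, and control embryos were T-Cre conditional Tbx1 heterozygotes, so the controls also carry T-Cre and a conditional Tbx1 allele. T-Cre is a recombinase driven by regulatory sequence of the early mesoderm gene T, so the deletion is directed at mesoderm and not at the vesicle epithelium. Each group held 3 arrays, labelled as biological replicates, and the tissue on each array was pooled from 3 embryos. The question is how these genes differ in the vesicle when mesodermal Tbx1 is lost.

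Neurons of the cochleovestibular ganglion come from the otic epithelium itself. Cells in the anteroventral vesicle switch on the proneural factor Neurog1, which restrains its neighbours through the Notch ligand Dll1 and activates Neurod1, and the neuroblasts then leave the epithelium, divide and mature. Neurod4, Nhlh1, Nhlh2, Insm1 and Ebf1 belong to the programme that follows proneural factors in many neural lineages, while Isl1 and Pou4f1 mark and shape sensory neurons and Eya2 is a transcriptional cofactor in placodes. In the mouse, Tbx1 within the otic epithelium is known to limit the neurogenic region, which is why these genes are of interest when Tbx1 is removed from the tissue beside it.

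The basic helix-loop-helix members (Neurog1, Neurod1, Neurod4, Nhlh1 and Nhlh2) bind E-boxes, hexamers of the form CANNTG, as dimers with E proteins such as Tcf3, Tcf4 and Tcf12. The 250 bases before the start of 3 of them are given to show the windows beside the values below: Neurog1 as the first step, Neurod1 as its known target, and Nhlh1 as a later factor. The sequences are from RefSeq (GRCm38.p6), on the strand of the gene, which is the minus strand for all 3, with each CANNTG in capitals. Neurog1 lies at chr13:56252181-56252430, Neurod1 at chr2:79456637-79456886 and Nhlh1 at chr1:172057597-172057846.
Neurog1: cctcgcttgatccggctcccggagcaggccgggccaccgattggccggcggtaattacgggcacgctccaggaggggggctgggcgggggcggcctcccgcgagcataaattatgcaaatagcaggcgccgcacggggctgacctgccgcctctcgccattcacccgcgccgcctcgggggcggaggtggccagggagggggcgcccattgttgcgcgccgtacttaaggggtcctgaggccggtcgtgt
Neurod1: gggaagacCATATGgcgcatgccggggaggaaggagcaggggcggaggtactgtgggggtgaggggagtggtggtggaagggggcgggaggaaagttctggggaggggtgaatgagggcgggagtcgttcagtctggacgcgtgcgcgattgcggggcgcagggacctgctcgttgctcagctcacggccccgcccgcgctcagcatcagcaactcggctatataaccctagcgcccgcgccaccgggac
Nhlh1: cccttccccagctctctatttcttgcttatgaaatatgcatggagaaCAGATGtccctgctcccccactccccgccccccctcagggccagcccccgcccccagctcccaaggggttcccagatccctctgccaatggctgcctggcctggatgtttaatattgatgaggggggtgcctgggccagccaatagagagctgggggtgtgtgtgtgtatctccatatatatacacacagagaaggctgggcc
The Neurog1 window held no CANNTG, Neurod1 held CATATG starting 242 bases before the start, and Nhlh1 held CAGATG starting 203 bases before it. CANNTG reads as CANNTG on the other strand, so both strands were covered by a single search. It was present in 66.2% of 32851 RefSeq windows of this length, CATATG in 3.46%, and CAGATG or its reverse complement CATCTG in 14.4%. Of the 10 genes, 8 had a window in the table, and 6 of these had a CANNTG in at least 1 window. Counted by window, as the 66.2% is, 6 of the 10 windows of these genes held one. A match describes letters and shows no binding.

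The tissue was checked first. All 11 measured markers of otic epithelium were above the brightness filter used for testing, an average intensity of 34.4, and their mean log2 level ran from 10.15 to 10.26 on the Mest-KO arrays and from 10.11 to 10.19 on the controls. The otoconial protein gene Oc90 stood between 11000 and 11340 in Mest-KO and between 11149 and 12448 in control. Of 10 hindbrain markers 6 were below the filter, as were all 4 measured markers of epibranchial and visceral neurons, Phox2a, Hand2, Dbh and Th, whose highest intensity was 85.5, for Dbh on Mest-KO 3. Other tissue was present: all 11 mesenchyme markers passed the filter, with Col3a1 at 371 to 1391 in Mest-KO and 265 to 873 in control. The globin gene Hbb-y stood at 12521 to 15050 in Mest-KO and 13462 to 14525 in control. The arrays were not alike within groups. Mest-KO 3 stood apart on the first principal component (64.6, against -20.0 and -6.7 on the other Mest-KO arrays and -18.5 to -7.1 on the controls), with a median intensity of 91.0 against 62.1 to 71.0 elsewhere. Quantile normalization, which precedes the tests, moved its dim probe sets down relative to the other arrays. Mest-KO 1 had Xist at 16.1 and control 2 had Eif2s3y at 12.1, so these pools each held embryos of a single sex. Tbx1 was read by 1 probe set, at 910, 704 and 713 in Mest-KO and 898, 690 and 766 in control; the log2 difference was -0.03 (SE 0.146), and whether that probe set reads the deleted exons was not analysed here.

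In the otic vesicles, both Neurod1 probe sets and Insm1 1455865_at had higher normalized values on every Mest-KO array than on any control array. Insm1 1421399_at, Neurog1 and Nhlh2 lay higher on average with overlapping groups. Isl1 lay slightly lower, and Neurod4, Nhlh1, Pou4f1, Eya2 and most of Ebf1 had intervals that covered 0 widely. None of these differences passed the test across the array: limma with Benjamini-Hochberg adjustment called 0 of 18 tested member probe sets, and 0 of all 27022 probe sets tested (0% called). At an unadjusted p under 0.05 there were 3 of the 18 and 1076 of the 27022. Differences are log2 Mest-KO minus control after quantile normalization, with the standard error (SE) and 95% interval of the limma fit and n = 3 arrays per group. The adjusted p of the member probe sets lay between 0.969 and 0.987. In whole vesicles, fewer neuroblasts and less RNA per neuroblast cannot be told apart, and the same holds for more.

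**Figure D1:**
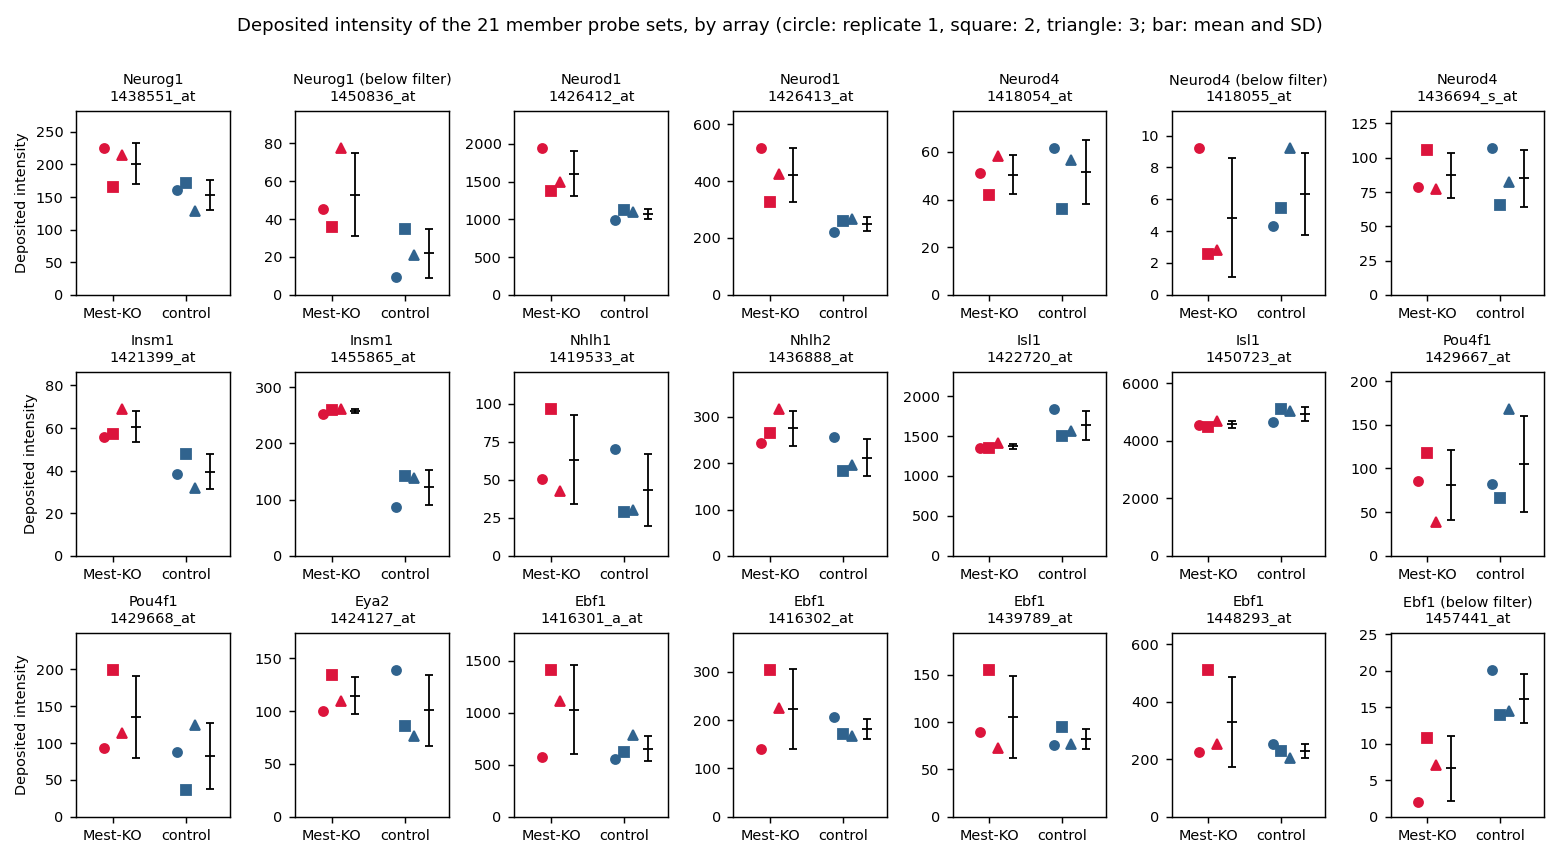
Deposited intensity (linear axis from 0) of each of the 21 member probe sets, with Mest-KO arrays left in red and controls right in blue; the bar is the mean ± SD of 3 arrays. Both Neurod1 probe sets and Insm1 1455865_at show all Mest-KO points above all control points, while the groups overlap at Nhlh1, at both Pou4f1 probe sets and at the 4 brighter Ebf1 probe sets. At these deposited intensities Insm1 1421399_at and Neurog1 1450836_at also separate in the higher direction, but their groups overlap after normalization.

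Neurog1, the proneural factor that commits otic cells to a neuronal fate, was read by a pair of probe sets. The brighter, 1438551_at, had 225, 165 and 214 in Mest-KO and 161, 171 and 128 in control. The Mest-KO 2 array lay below control 2, so the groups overlapped, and the log2 difference was 0.33 (SE 0.180, 95% interval -0.11 to 0.76). The dimmer, 1450836_at, had 45.5, 35.9 and 77.4 in Mest-KO and 9.54, 34.9 and 21.1 in control, and did not pass the filter. Its log2 difference was 1.22 with an SE of 0.565 in the fit without the filter, and it was 0.66 without control 1 and 1.71 without control 2. Its deposited values did not overlap, but by a margin of about 1 intensity unit between Mest-KO 2 and control 2, and on the normalized scale they did (5.27 against 5.34). Without control 3 the difference at 1438551_at was 0.19, and with the other arrays left out singly it reached up to 0.44.

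Neurod1, needed for otic neuroblasts to leave the epithelium and survive, was the bHLH member with groups that separated at each of its probe sets. Probe set 1426412_at had 1945, 1379 and 1490 in Mest-KO and 994, 1122 and 1096 in control, means of 1605 ± 299 and 1071 ± 67.8 (SD, n = 3 each). Probe set 1426413_at had 516, 326 and 425 in Mest-KO and 222, 261 and 267 in control. Mest-KO 1 was the highest and Mest-KO 2 the lowest Mest-KO array at both. On the log2 scale the differences were 0.57 (SE 0.151, 95% interval 0.20 to 0.94, a ratio of 1.49) and 0.70 (SE 0.193, 95% interval 0.22 to 1.17, a ratio of 1.62). The limma p-values were 0.00879 and 0.0110 before adjustment and 0.969 after it for both. The spread between Mest-KO arrays was larger than between controls, with SDs on the log2 scale of 0.248 and 0.111 at 1426412_at.

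Insm1 encodes a zinc finger repressor that is transiently on in progenitors and newborn neurons across the nervous system. Probe set 1455865_at had 253, 259 and 261 in Mest-KO and 86.2, 142 and 138 in control. The Mest-KO arrays were nearly equal (SD 0.0293 on the log2 scale), and the spread lay in the controls (SD 0.445), of which control 1 was the lowest. The log2 difference of 1.04 (SE 0.224, 95% interval 0.49 to 1.58), a ratio of 2.05, was the largest of the member probe sets tested, and it was 0.79 without control 1. Its limma p-value was 0.00338 before adjustment and 0.969 after it. The other probe set, 1421399_at, had 55.6, 57.4 and 68.9 in Mest-KO and 38.6, 48.0 and 31.8 in control. These deposited values did not overlap, while after normalization Mest-KO 3 lay below control 2 (5.64 against 5.80). Its difference was 0.44 (SE 0.205, 95% interval -0.06 to 0.94), in the same direction as at 1455865_at and smaller.

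Neurod4, a bHLH factor that acts with other proneural genes in brain and retina, had small differences whose size or sign moved with the scaling. Probe set 1418054_at had 51.2, 41.9 and 58.3 in Mest-KO and 61.6, 36.2 and 56.8 in control, a log2 difference of -0.20 (SE 0.199, 95% interval -0.69 to 0.28), or -0.01 with the deposited scaling. Probe set 1436694_s_at, whose suffix marks probes that can match more than 1 transcript, had 78.7, 106 and 76.9 in Mest-KO and 107, 65.5 and 82.3 in control, a difference of -0.13 (SE 0.256). It was 0.05 with the deposited scaling, 0.11 without Mest-KO 3 and 0.01 without control 1. The third, 1418055_at, lay below the filter at 2.56 to 9.19 in Mest-KO and 4.30 to 9.21 in control. The groups overlapped at all 3.

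Nhlh1 and Nhlh2 are bHLH factors of newborn neurons. Nhlh2 had 243, 266 and 317 in Mest-KO and 257, 183 and 197 in control; Mest-KO 1 lay below control 1, and the log2 difference was 0.33 (SE 0.154, 95% interval -0.05 to 0.70). Nhlh1 had 50.7, 96.5 and 42.3 in Mest-KO and 70.3, 28.7 and 30.3 in control. A single high array in each group, Mest-KO 2 and control 1, carried the upper values, and the log2 difference of 0.32 (SE 0.529) ran from -0.12 without Mest-KO 2 to 0.83 without Mest-KO 3. The same arrays were the highest of their groups for the mean of 25 early neuron genes (6.68, 7.20 and 6.48 in Mest-KO, and 7.24 on control 1 and 6.76 on control 2 with control 3 between them) and of 7 neural crest and glia markers (7.36, 8.14 and 6.82 in Mest-KO, 8.04, 7.03 and 7.06 in control). In the crest list, Sox10 ran from 4324 to 5138 in Mest-KO and 4509 to 5320 in control, and Erbb3 from 7421 to 8157 over all arrays. Foxd3, Cdh19 and Tfap2b were below the filter but entered the list mean, with Tfap2b at 133 on Mest-KO 2. Fabp7 stood at 1619 on control 1, against 396 and 191 on the other controls. Ngfr was highest on Mest-KO 3, at 322. The early neuron mean likewise includes genes below the filter. Mest-KO 2 and control 1 were also highest for the list means of Notch genes, partners and cofactors, mesenchyme and endothelium. Of these list means, those of Notch genes (8.75 to 8.85 over the 6 arrays) and of partners and cofactors (10.94 to 11.12) varied little. Those of mesenchyme (6.99 to 8.80) and endothelium (4.38 to 5.96) varied more. For Nhlh1 itself, control 2 and control 3 were nearly tied after normalization (5.04 and 5.03), and control 3 was the higher in the deposited intensities. After normalization its full array order was that of the partner and cofactor list mean. In the deposited intensities it was that of the early neuron and the neural crest and glia list means. The part of ganglion or crest tissue in the Nhlh1 values was not tested.

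Isl1, a LIM homeodomain factor of otic neuroblasts and of the prosensory epithelium, had the narrowest intervals of the 10 genes. Probe set 1422720_at had 1345, 1352 and 1410 in Mest-KO and 1837, 1495 and 1564 in control. Every Mest-KO array lay below every control array, and the log2 difference was -0.25 (SE 0.113, 95% interval -0.52 to 0.02). Probe set 1450723_at had 4534, 4475 and 4691 in Mest-KO and 4639, 5102 and 5043 in control, with Mest-KO 3 above control 1. Its difference was -0.06 (SE 0.0901), with an interval in ratio from 0.822 to 1.11, so at this probe set a change of the size seen at Insm1 1455865_at lay outside the interval. Without control 1 the difference at 1422720_at was -0.16.

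Pou4f1, the POU homeodomain factor of cranial sensory neurons, gave opposite signs at its probe sets. At 1429667_at the intensities were 85.5, 118 and 38.4 in Mest-KO and 81.9, 66.1 and 168 in control, a log2 difference of -0.68 (SE 0.642), or 0.01 without Mest-KO 3. At 1429668_at they were 93.0, 199 and 114 in Mest-KO and 88.0, 35.7 and 124 in control, a difference of 0.67 (SE 0.481), or 0.22 without control 2 and 0.31 without Mest-KO 2. Both sets of groups overlapped, and a 95% interval from -2.24 to 0.89 at the first and from -0.51 to 1.84 at the second leaves the direction undecided at this number of arrays.

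Eya2, a phosphatase and transcriptional coactivator, had 100, 134 and 110 in Mest-KO and 139, 86.4 and 76.7 in control. The difference was 0.09 (SE 0.253, 95% interval -0.52 to 0.71), and control 1 lay above all other arrays in the deposited values. It was 0.31 without control 1, and its sign turned without Mest-KO 2 (-0.07) and without control 3 (-0.10).

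Ebf1 encodes a helix-loop-helix factor of differentiating neurons that is also known from B cells and mesenchyme, and it was read by 5 probe sets. The brightest, 1416301_a_at, had 571, 1411 and 1109 in Mest-KO and 556, 627 and 785 in control. Mest-KO 2 and Mest-KO 3 lay above all controls and Mest-KO 1 among them, and the log2 difference of 0.56 (SE 0.358, 95% interval -0.31 to 1.44) ran from 0.29 without Mest-KO 2 to 0.95 without Mest-KO 1. Probe set 1448293_at had 225, 511 and 255 in Mest-KO and 252, 229 and 204 in control, a difference of 0.38 (SE 0.324), or 0.00 without Mest-KO 2. Probe sets 1416302_at and 1439789_at differed by 0.18 (SE 0.273) and 0.11 (SE 0.391), and Mest-KO 2 was the highest array at each. Without it their signs turned, to -0.09 and -0.27. The last, 1457441_at, lay below the filter at 1.97 to 10.8 in Mest-KO and 14.0 to 20.1 in control, and its difference of -1.81 went the other way, being -0.08 when values under 16 were set to 16.

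The Ebf1 values varied beside those of mesenchyme. The mean log2 level of 11 mesenchyme markers was 7.16, 8.80 and 8.21 in Mest-KO and 8.22, 7.73 and 6.99 in control. Mest-KO 2 was highest and Mest-KO 1 lowest both for this list and for Ebf1 at 1416301_a_at, whereas the controls ran in opposite order. At 1416302_at and 1448293_at all 6 arrays took the order of the mesenchyme list within each group. At 1439789_at the order differed from that list in both groups, with Mest-KO 3 lowest in Mest-KO and control 2 highest in control. The endothelium list mean, in which 3 of 6 genes lay below the filter, took the same order as the mesenchyme list. Of the 11 markers 10 lay higher in Mest-KO, with Prrx1 at 223, 986 and 556 in Mest-KO and 569, 262 and 171 in control, and 0 passed the adjusted threshold. Ebf2, a paralogue, ranked the arrays of each group as Ebf1 1416301_a_at did and not as the mesenchyme list did in control, with 60.1, 145 and 137 in Mest-KO and 52.2, 63.4 and 82.7 in control. The part of mesenchyme in the Ebf1 values was not tested.

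**Figure D2:**
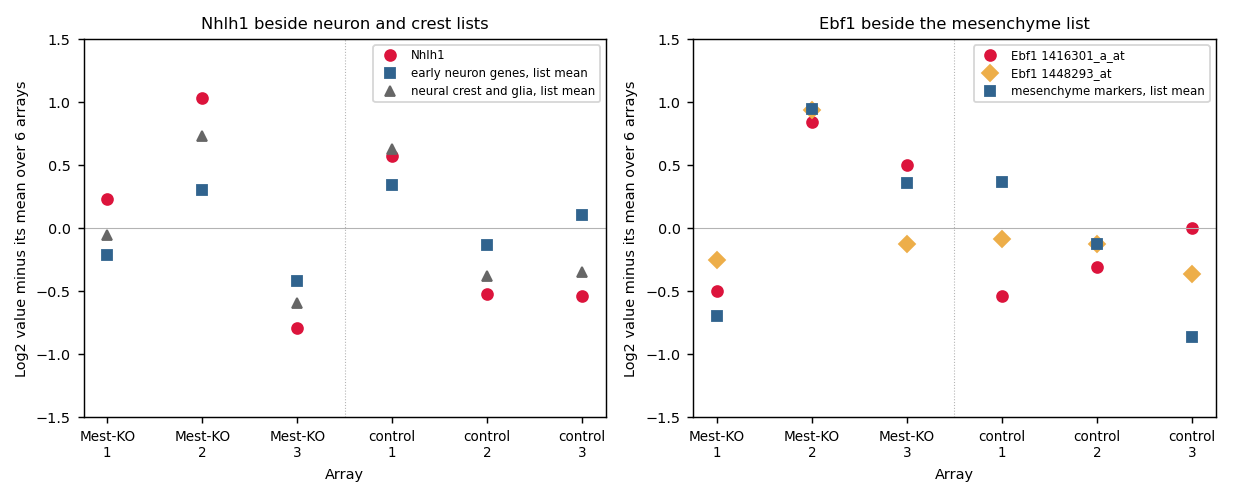
Normalized log2 value of Nhlh1 and of 2 Ebf1 probe sets (points, by array) beside the mean of the early neuron, neural crest and glia, and mesenchyme lists, each minus its own mean over 6 arrays. Mest-KO 2 is the highest Mest-KO array in both panels, and control 1 is the highest control for Nhlh1 and for each list shown. The same arrays were highest for the Notch, partner and cofactor, and endothelium list means, which are not drawn.

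Across the genes, 13 of the 18 tested member probe sets had a difference above 0 and 5 below it, where 48.3% of all tested probe sets lay above 0. The median was 0.32 over the 18, against -0.01 over all 27022. A shift upward was not limited to these genes: the 11 mesenchyme markers had a median of 0.44, with 10 higher and 1 lower. At an unadjusted p under 0.05 there were 3 of 18, both Neurod1 probe sets and Insm1 1455865_at, against 3.98% of all tested; all 3 lay higher (1.74% of all tested were higher at that p and 2.25% lower). With limma's trend option, which lets the variance prior follow brightness, there were 4 of 18 against 4.65%, namely the same 3 higher (2.25% of all tested) and Isl1 1422720_at lower (2.40%). Normalized values of the groups did not overlap at 4 of 18, against 9.37% of all tested, with 3 of 18 in the higher direction, against 4.17%, and at 1 of 18 in the lower direction, against 5.20%. Probe sets of one gene read the same RNA, so the 3 separated ones stand for 2 genes. The filter, set on the mean over all 6 arrays, left out 3 of the 21. With the trend, 14 of the 27022 were called (0.0518%; 0.00370% higher and 0.0481% lower) and 0 of the 18 members, for which the smallest adjusted p was 0.450, at Insm1 1455865_at.

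**Figure D3:**
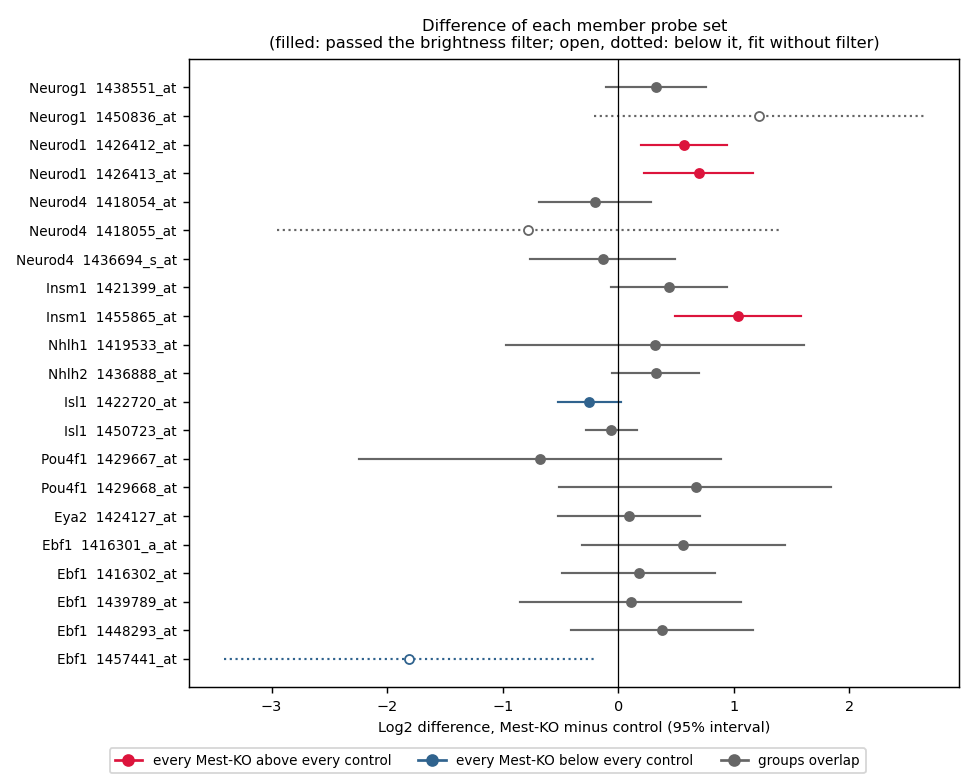
Log2 difference, Mest-KO minus control, of each member probe set with its 95% limma interval; open points with dotted lines lay below the brightness filter and come from the fit without it. The intervals of both Neurod1 probe sets and of Insm1 1455865_at lie above 0, and those of Nhlh1 and Pou4f1 are the widest among the filled points.

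The differences of Neurod1 and Insm1 were followed through the arrays. With any single array left out, Neurod1 1426412_at ran from 0.44 to 0.67, Neurod1 1426413_at from 0.54 to 0.87 and Insm1 1455865_at from 0.79 to 1.19. Without Mest-KO 3, the array that stood apart, they were 0.61, 0.69 and 1.08. Without Mest-KO 1 and control 2, the single-sex pools, they were 0.47, 0.59 and 1.17. Nhlh2 was 0.24 and Neurog1 1438551_at 0.31 without Mest-KO 3. These shifts kept the sign, and no setting brought a member past the adjusted threshold.

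**Figure D4:**
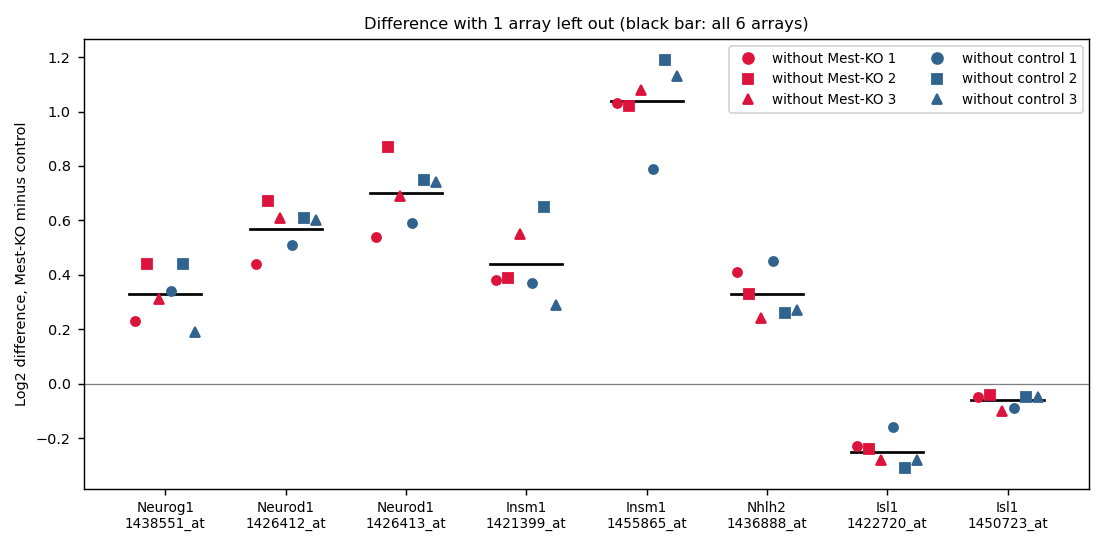
Log2 difference, Mest-KO minus control, of 8 probe sets of Neurog1, Neurod1, Insm1, Nhlh2 and Isl1 over all 6 arrays (black bar) and with each array left out in turn (symbols). Insm1 1455865_at is at 0.79 without control 1, and all other values stay on the side of 0 of their black bar.

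Genes that act around the members were read from the brightest probe set of each. Of 13 tested genes of Notch signalling and lateral inhibition, 9 lay higher and 4 lower in Mest-KO, 0 passed the adjusted test in either direction, and the median difference was 0.11. Dll1, the ligand through which a neuroblast inhibits its neighbours, had 152, 151 and 100 in Mest-KO and 123, 84.9 and 121 in control, a difference of 0.13 (SE 0.275). The smallest p-values in the list belonged to Mfng, a modifier of Notch, at 0.28 (SE 0.154), Hey1, a Notch target, at -0.17 (SE 0.104), Jag1, a ligand, at 0.13 (SE 0.0896), and Hey2 at -0.22 (SE 0.164). The other Jag1 probe sets that passed the filter had the opposite sign, at -0.47 (SE 0.292) and -0.07 (SE 0.211). Dll3, Dll4 and Hes5 were below the filter.

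Of 11 tested genes of neurogenic competence, the state that precedes Neurog1, 7 lay higher and 4 lower, 0 passed, and the median was 0.15. Fgf3, a ligand expressed in the neurogenic region of the ear, had 302, 240 and 254 in Mest-KO and 191, 162 and 162 in control, and the homeobox gene Gbx2 had 921, 620 and 553 in Mest-KO and 542, 514 and 531 in control. The differences were 0.56 (SE 0.129) and 0.35 (SE 0.193). Normalized values did not overlap at these 2 of the 11 genes tested, both in the higher direction, where 4.17% of all tested probe sets did so. The groups overlapped at the other Fgf3 probe sets, with differences of 0.29 (SE 0.361) and 0.63 (SE 0.230). Sox2, which marks neurosensory cells, differed by 0.18 (SE 0.108), Six4 by 0.15 (SE 0.103) and Eya1 by -0.08 (SE 0.129), with -0.34 (SE 0.139) and -0.24 (SE 0.415) at its other probe sets.

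Of 19 tested early neuron genes, 7 lay higher and 12 lower, 0 passed, and the median was -0.06. Elavl3, an RNA-binding protein of newborn neurons, had 120, 138 and 140 in Mest-KO and 110, 74.3 and 98.5 in control, a difference of 0.38 (SE 0.129). Tubb3, the neuronal tubulin, had 660, 682 and 490 in Mest-KO and 736, 579 and 619 in control, a difference of -0.11 (SE 0.164). Ret, a growth factor receptor, differed by 0.43 (SE 0.231) and Mapt, a dim microtubule protein gene, by -0.97 (SE 0.190). The other Mapt probe sets lay below the filter with overlapping groups and mixed signs, at -0.72, 0.35 and 0.15. Gata3, which the auditory neurons share with much of the otic epithelium, had 1123, 915 and 1123 in Mest-KO and 2170, 2074 and 2146 in control, a difference of -1.02 (SE 0.115, limma adjusted p = 0.213, or 0.00311 with the trend). It was the one gene of the 5 gene lists beside the members that passed with the trend.

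Of the 7 tested paralogues of the members, 2 lay higher and 5 lower, 0 passed, and the median was -0.06. Isl2, the paralogue of Isl1, had 181, 203 and 227 in Mest-KO and 265, 223 and 258 in control, a difference of -0.35 (SE 0.107). Among the Ebf genes, Ebf2 differed by 0.61 (SE 0.339), Ebf3 by 0.22 (SE 0.142) and Ebf4 by -0.37 (SE 0.216). Below the filter, the other Ebf2 probe sets differed by -0.09 and 2.53. The bHLH paralogues Neurog2, Neurog3, Neurod2, Neurod6 and Atoh1, the zinc finger gene Insm2 and the hair cell factor Pou4f3 were below the filter. The 18 partners and cofactors gave 10 higher, 8 lower, 0 passed and a median of 0.00. Among them were the E proteins, the Id proteins that hold E proteins back, the repressor Rest and the corepressors Rcor1 and Kdm1a. Id3 differed by -0.18 (SE 0.0952), the LIM cofactor gene Ldb1 by 0.16 (SE 0.132), Dach1, a partner of Eya proteins, by 0.16 (SE 0.140) and the corepressor gene Cbfa2t3 by -0.25 (SE 0.331). Other probe sets of Dach1 and Cbfa2t3 went the other way, at -0.15 (SE 0.177) and -0.05 (SE 0.0998) for Dach1 and, below the filter, from 0.31 to 0.85 for Cbfa2t3.

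The genes outside the members whose values over the 6 arrays were most like those of Neurog1, Neurod1 and Insm1 were found by the root mean square (RMS) difference of log2 values, each centred on its own mean, over 23129 probe sets. For Neurog1 they were Slc45a4 (0.0786), Tuba4a (0.0844) and Steap2 (0.0857), where Neurog1 itself had an RMS of 0.256 around its mean. For Neurod1 they were C920021L13Rik (0.108), Cln3 (0.111) and Ahsa1 (0.118), against 0.327 for Neurod1. For Insm1 they were Prelp (0.131), Gpr4 (0.196) and Zfp420 (0.202), against 0.580 for Insm1. None of these 9 is on the lists above, and with 6 arrays such likeness is a description only.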

How the data were processed

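Per the labels' protocols, ears were treated with dispase (30 min, 37 °C) to strip periotic tissue, and 300 ng of RNA per array was labelled with biotin. The authors deposited linear intensities per probe set, made with Expression Console 1.1 per the submitters' processing notes. In the files the mean of every array, with 2% trimmed at both ends, is 500. How probes were summarised was not stated in the labels. The table held 45101 probe sets, of which 64 controls were left out. The platform annotation gave 1 symbol to 34945, several to 932 and none used here to 9160, and 34754 symbols were brought up to date by their RefSeq gene ID.

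After a floor at 1, log2 intensities were quantile normalized across arrays, which evens out differences in distribution and can move dim values. Probe sets with a mean above the 40th percentile were tested, 27022 in all, by lmFit and eBayes without covariates (limma 3.58.1, R 4.3.3). The limma fit was tested on simulated log2 values of the tested probe sets, which did not cover the floor, the normalization or the filter. Calls use an adjusted p under 0.05 over all probe sets tested. The number of arrays limits the precision. Python 3.11.15 with matplotlib 3.10.9 made the plots.

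The members, lists and tests were chosen with earlier results of these data known. The text names every member probe set, up to 4 genes with the smallest p of each of 5 lists (Notch and lateral inhibition, neurogenic competence, early neuron genes, paralogues, partners and cofactors), the genes Tbx1, Sox2, Eya1, Dll1, Tubb3 and Elavl3, and the 3 nearest genes of each of 3 members. Marker genes and array comparisons shown beside Nhlh1 and Ebf1 were picked after their values were seen. Of the remaining marker lists, endothelium (3 of 6 genes tested, median 0.29) and erythroid cells (4 of 5 measured genes tested, median -0.02) had 0 genes past the threshold.

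Replicate numbers were checked for pairing: the deviations of same-numbered arrays from their group means correlated at -0.0409, -0.00655 and 0.0329, which gave no sign of pairing. Values near 0 do not exclude it, as the spread of single arrays can hide a shared part. The labels do not say whether the numbers pair the arrays. Alternatives were other filters, scalings and floors, a variance trend, array weights, 1 probe set per gene, the replicate block and arrays left out.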

Additional observations from a re-analysis of the deposited data

How the results depend on the processing

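The count of member probe sets past the threshold was 0 under all 26 alternatives. Over all probe sets, 0 in the main setting, it was 1 without a filter, 9 with a filter at percentile 60 (fewer probe sets tested), 15 with median centring, 14 with the trend, 17 when robust fitting was added to it, 1 at an adjusted p under 0.10, and 0 to 0 with 1 array left out. Chosen after seeing the data, the trend with an array left out gave 7 to 14 (14, 11 and 13 without Mest-KO 1, 2 and 3, and 7, 7 and 9 without control 1, 2 and 3), 10 without Mest-KO 1 and control 2, 16 with the deposited scaling and 10 with the replicate block. List genes numbered 1, Gata3, with the percentile 60 filter and in each setting with the trend, and 0 otherwise. Median centring moved the median of all tested probe sets to -0.12, and Neurod1 1426412_at to 0.42.

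Signs turned, with the cause not tested, for Neurod4 1436694_s_at (0.05 with the deposited scaling, -0.34 to 0.11 with an array left out), Nhlh1 (-0.12 to 0.83), Pou4f1 1429667_at (-1.11 to 0.01), Eya2 (-0.10 to 0.31, with -0.07 without Mest-KO 2), Ebf1 1416302_at (-0.09 to 0.45), Ebf1 1439789_at (-0.27 to 0.51) and Tbx1 (-0.14 to 0.06, with 0.04 without Mest-KO 2 and 0.02 without Mest-KO 3), also with the trend. Neurog1, Neurod1, Insm1, Nhlh2 and Isl1 kept their sign under every alternative. With the replicate block Insm1 1455865_at stayed at 1.04 (SE 0.200, limma adjusted p = 0.954), and the block added no call.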
